A study of Drosophila melanogaster
Mus musculus with 36 samples.

Results

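The comparison described here is that of periodate-oxidised with untreated small RNA libraries at the greatest dilution of fly RNA, 1 part of fly RNA in 100000 parts of mouse RNA. The labels name 6 such libraries, 3 oxidised and 3 untreated, among the 36 of the series, and every fly and mouse miRNA entry of these libraries was used. Each entry is 1 arm of a miRNA hairpin, and 372 fly arms and 1666 mouse arms were listed. The fly RNA in both groups came from Drosophila melanogaster S2-S cells, a cell line of embryonic origin, that lack the fly methyltransferase (DmHen1-KO) and express the Arabidopsis thaliana enzyme (AthHEN1). The mouse RNA came from embryonic stem cells of clone AN3-12 that carry no such enzyme. The groups differ in the treatment alone: each mixture was divided after selection of RNAs of 18 to 30 nt and depletion of 2S rRNA, 1 portion was oxidised with sodium periodate and the other was not. The libraries form 3 sets, each with 1 oxidised and 1 untreated library. Set 1, whose titles carry no replica number, held 25 µg of mouse RNA and was sequenced on a HiSeq2500; sets 2 and 3 held 50 µg of total RNA per mixture and were sequenced on a HiSeq2000. The labels do not say whether the sets came from separate cultures, so p-values measure the spread between these samples, which may be technical. The fly cells are 1 engineered line and the mouse cells 1 clone.

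Animal miRNAs end in a free 2'-hydroxyl and 3'-hydroxyl, and periodate oxidises this pair of groups so that an adapter can no longer be joined to the end. Plant HEN1 methylates the 2'-hydroxyl of the terminal nucleotide, and periodate spares such ends. A miRNA hairpin gives a 5p and a 3p arm, of which one usually accumulates as the guide in an Argonaute protein. In S2 cells bantam, which promotes growth and restrains apoptosis, and the mir-2 and mir-13 family, which represses proapoptotic genes, are well known, while mouse embryonic stem cells are marked by the mir-290 cluster.

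The untreated library of set 1 stood apart from the other untreated libraries, and the counts of calls and the group differences that rest on it are given with and without it. This library was picked out in these data by its high fly counts, so values without it are no separate support for a gain from oxidation. It held 1823 fly counts among 2858977, or 0.0638% (95% Wilson interval 0.0609 to 0.0668), against 138 among 3372441 in set 2, or 0.00409% (0.00346 to 0.00483), and 460 among 8635196 in set 3, or 0.00533% (0.00486 to 0.00584). Its fly share was also higher than in its own set's untreated library at 1:10000, where fly RNA was 10 times less diluted: the fly to mouse ratio at 1:10000 was 0.530 times that at 1:100000. Oxidised libraries were small, with 5534, 52238 and 6423 counts in sets 1, 2 and 3. In these, a count of 0 allows a share of up to 0.0542%, 0.00574% and 0.0467% of all counts, by a floor of 3 counts. Intervals and floors cover counting error only, because amplified reads are not independent molecules. Arms of the list of S2 cell miRNAs made up 94.2%, 96.4% and 96.6% of fly counts in oxidised sets 1, 2 and 3 and 94.5%, 47.1% and 52.2% in untreated ones, the rest of untreated sets 2 and 3 being largely entries that do not follow fly RNA, described further on. The mir-290 cluster, which marks the mouse cells, made up 57.05% to 83.3% of mouse counts over the 6 libraries.

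Fly miRNAs made up a larger part of every oxidised library than of any untreated library. The oxidised libraries held 275, 2460 and 1327 fly counts in sets 1, 2 and 3, or 4.97% (4.43 to 5.57), 4.71% (4.53 to 4.89) and 20.7% (19.7 to 21.7) of their counts. The groups did not overlap, and the lowest oxidised share lay above the share of untreated set 1, the highest of its group. The log2 ratio of fly to mouse counts was -3.51 ± 1.36 (SD, n = 3) in oxidised and -13.13 ± 2.19 (SD, n = 3) in untreated libraries, a difference of 9.62, or 785-fold. Within sets the difference was 6.36 in set 1, 10.24 in set 2 and 12.26 in set 3, which are 82.0-fold, 1207-fold and 4888-fold. An exact two-sided permutation test gave p = 0.1, the smallest that 3 libraries against 3 allow, and an exact sign-flip test over the 3 pairs gave p = 0.25, also the smallest possible. Without untreated set 1 the difference was 10.87.

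**Figure D1:**
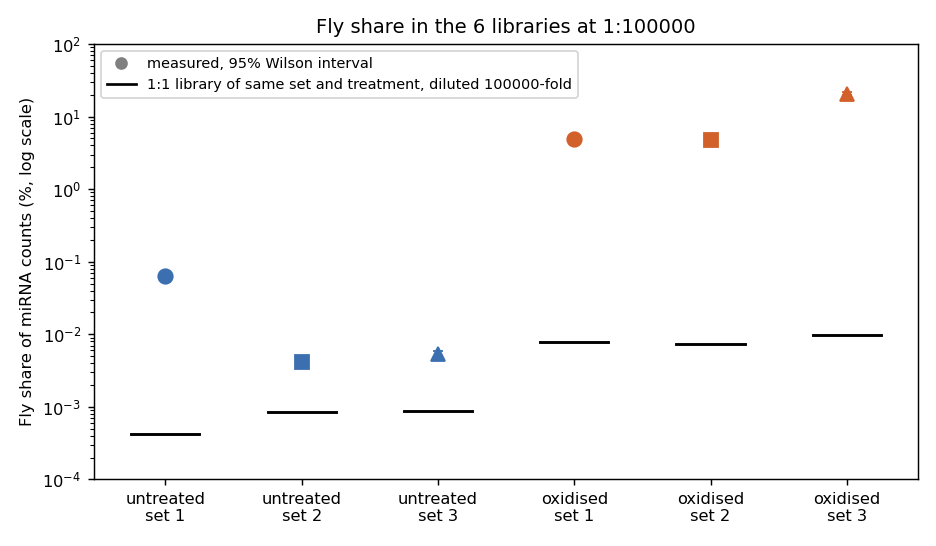
Fly share of miRNA counts (percent, log scale) in each of the 6 libraries at 1:100000, as points with 95% Wilson intervals, beside the share that a 100000-fold dilution of the 1:1 library of the same set and treatment would give (bars). The oxidised libraries lie between 4.71% and 20.7% and the untreated ones between 0.00409% and 0.0638%, and all 6 points lie above their bars, by an amount that in oxidised libraries depends on the base.

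All 6 libraries held more fly counts than proportional dilution would give. From the fly to mouse ratio of the 1:1 library of the same set and treatment, diluted 100000 times, untreated libraries would hold 12.07, 28.98 and 76.25 fly counts in sets 1, 2 and 3, and held 151, 4.76 and 6.03 times as many. For oxidised libraries the size of the excess depended on the base. Their fly share hardly fell between 1:1 (88.8%, 87.9% and 90.8% in sets 1, 2 and 3) and 1:10 (87.3%, 87.2% and 87.3%), and mmu-mir-184-3p, an entry whose level moves with the fly share, made up 88.01% of their mouse counts at 1:1. The excess was 661-fold, 682-fold and 2649-fold from the 1:1 base, 76.2-fold, 72.3-fold and 378-fold from the 1:10 base, and 55.8-fold, 87.2-fold and 406-fold from the 1:1 base with mmu-mir-184-3p left out of the mouse counts. The step from 1:10000 to 1:100000, which proportional dilution would make a 10-fold fall of the fly to mouse ratio, was 2.89-fold, 7.83-fold and 2.27-fold in oxidised libraries and 4.54-fold and 3.27-fold in untreated sets 2 and 3. The amount of fly RNA in a mixture and the recovery of its small RNAs in a library cannot be told apart in these data.

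The gain from oxidation at 1:100000 was not told apart from that at 1:10000. The log2 difference between oxidised and untreated libraries was 9.62 on average at 1:100000 and 10.52 at 1:10000, and the change of -0.90 was smaller than its spread over sets (SD 1.49, n = 3). The change was -2.45 in set 1, -0.79 in set 2 and 0.53 in set 3 (exact permutation p = 0.7, exact sign-flip p = 0.5). Without set 1 it was -0.13. In a joint edgeR quasi-likelihood fit of both dilutions, the interaction was called for 0 of 456 entries (0%) at an adjusted p below 0.05. An unadjusted p below 0.05 was found for 0 of 58 fly arms and 32 of 398 mouse arms. The median interaction was -1.92 for fly arms and 0.10 for mouse arms. The fit at 1:100000 alone also called no entry, so the lack of calls does not show that the gains are alike.

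The number of fly arms seen set the limit of detection in each library. With a minimum of 3 counts, oxidised libraries showed 25, 53 and 44 of the 372 listed fly arms in sets 1, 2 and 3, and untreated libraries 50, 10 and 21. Untreated set 1 thus reached the oxidised range, while untreated sets 2 and 3 lay below it. With at least 1 count the numbers were 49, 71 and 60 oxidised and 80, 27 and 47 untreated, and with at least 10 counts 6, 26 and 23 oxidised and 34, 2 and 7 untreated. These are numbers at very unequal depth. With all 6 libraries thinned to the same 5517 counts, as many as the smallest holds after rounding, the expected number of fly arms with 3 or more counts was 25, 19.2 and 42.05 in oxidised libraries, 28.8 ± 11.9 (SD, n = 3), and 0.0333 or less in each untreated library. The difference of 28.75 arms had an exact two-sided permutation p of 0.1, and without thinning it was 14 arms (p = 0.4). At 5517 counts the untreated fly shares, 0.0638% or less, leave hardly any fly counts. The thinned difference therefore restates the fly share and is no separate result on detection.

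Over the 6 libraries 68 fly arms reached 3 counts somewhere and 304 did not. All 3 oxidised libraries shared 22 arms at this minimum, all 3 untreated ones 7, and 6 arms reached it in all 6 libraries. Those 6 were dme-bantam-3p, dme-mir-282-5p, dme-mir-317-3p, dme-mir-33-5p, dme-mir-34-5p and dme-mir-8-3p. They all rank among the 7 most abundant fly arms of untreated 1:1 libraries, which served as the reference order. The arm seen in every untreated library and not in every oxidised one was dme-mir-124-3p, described further on.

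Arms dropped out from the bottom of the reference order upward. The 12 most abundant arms, each with 1.74% to 42.8% of fly counts in untreated 1:1 libraries, reached 3 counts in all oxidised libraries and in untreated sets 1 and 3, and 6 of them did in untreated set 2. Of the next 13 arms, with shares of 0.827% to 1.67%, 8, 12 and 13 were seen in oxidised sets 1, 2 and 3, and 13, 1 and 4 in the untreated ones. Of the 25 arms at ranks 26 to 50, 5, 16 and 12 were seen in oxidised libraries, 17 in untreated set 1 and 0 in untreated sets 2 and 3. Of the 50 arms at ranks 51 to 100, with shares of 0.00348% to 0.0871%, oxidised libraries showed 0, 12 and 7, untreated set 1 showed 7 and the other untreated sets 0.

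The most abundant arm with 0 counts marks the limit from the other side. In oxidised libraries it was dme-mir-304-5p at rank 25 in set 1, dme-mir-2a-1-5p at rank 39 in set 2 and dme-mir-306-5p at rank 27 in set 3. In untreated libraries it was dme-mir-317-5p at rank 45 in set 1, dme-bantam-5p at rank 11 in set 2 and dme-mir-2a-2-5p at rank 16 in set 3. Single arms departed from this order: dme-mir-306-5p, at 0 in oxidised set 3, had 61 counts in oxidised set 2. Leaving out the entries that do not follow fly RNA in untreated libraries, described further on, the rarest arm of the reference order that reached 3 counts was dme-mir-1013-3p in oxidised set 2, at rank 97, with 9 counts; it is itself listed among oxidised entries of raised share.

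**Figure D2:**
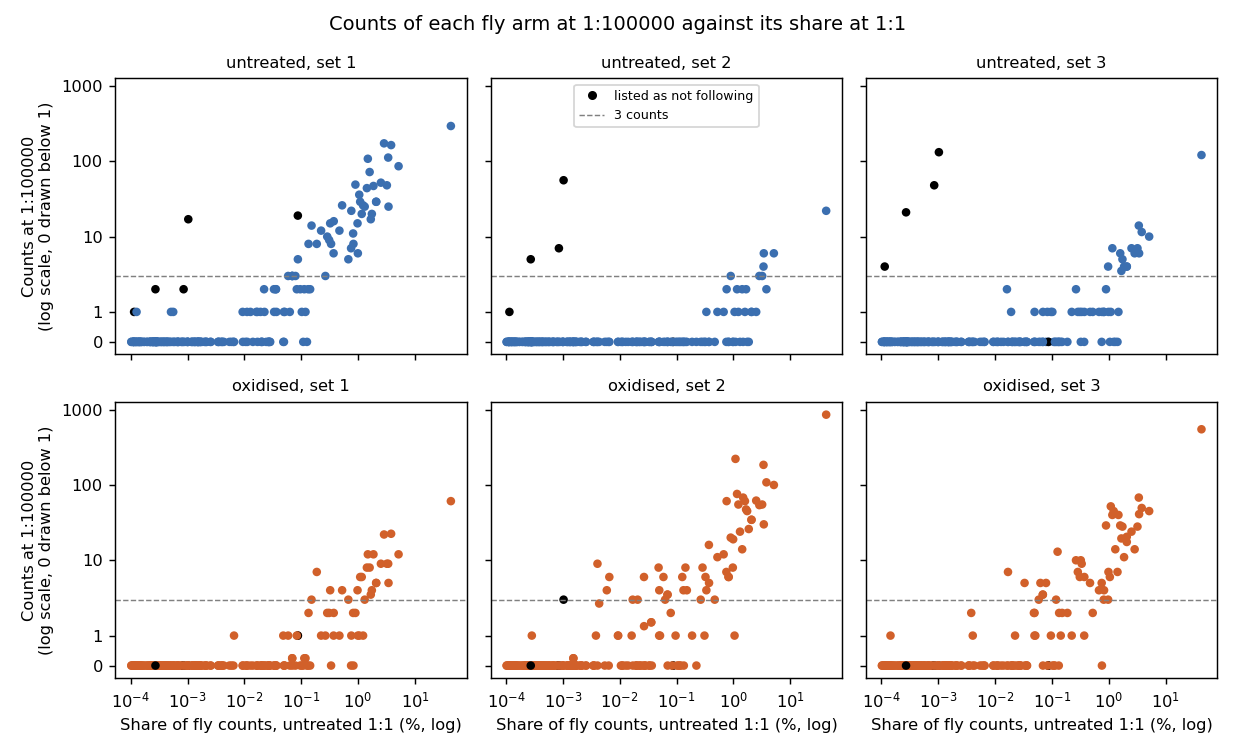
Counts of each fly arm at 1:100000 (log scale, with 0 drawn below 1) against its mean share of fly counts in untreated 1:1 libraries (percent, log scale), with 1 panel per library and a dashed line at 3 counts; arms with a share under 0.0001% are not drawn. Coloured dots above the dashed line reach the lowest share in oxidised set 2 (0.00406%), and black dots, which stand for entries listed as not following fly RNA in untreated libraries, reach 56 and 132 counts in untreated sets 2 and 3 at a share of 0.00103%.

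Among single arms, dme-bantam-3p, the main arm of the growth-promoting bantam, was the most abundant fly arm in 4 of the 6 libraries. It had 294, 22 and 121 counts in untreated sets 1, 2 and 3 and 61, 858 and 549 in oxidised ones, or 16.1%, 15.9% and 26.3% of fly counts untreated and 22.2%, 34.9% and 41.4% oxidised. Per 1000000 mouse counts it stood at 103, 6.52 and 14.01 untreated and 11600, 17236 and 107742 oxidised. The groups did not overlap, but a floor of 3 counts in oxidised sets 1 and 3, 570 and 589, already lies above the untreated levels of dme-bantam-3p. Its edgeR log2 change was 9.21 (SE 1.90; quasi-likelihood adjusted p = 0.107), so it was not called. Without untreated set 1 it was 11.98 (edgeR adjusted p = 0.000622) and with the replicate set as a block 10.42 (edgeR adjusted p = 1.94e-07), and it was called in both.

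The arms of the cluster that also holds mir-277 gave dme-mir-317-3p with 25, 6 and 6 counts untreated and 5, 30 and 41 oxidised, and dme-mir-34-5p with 48, 3 and 7 untreated and 9, 55 and 28 oxidised. Flies without mir-34 show early decline of the ageing brain. The third member, dme-mir-277-3p, had 72, 1 and 6 counts untreated and 8, 61 and 29 oxidised. Raw counts of all 3 overlapped between the groups, while their counts per 1000000 mouse counts did not. In oxidised sets 1, 2 and 3 a floor of 3 counts corresponds to 570, 60.3 and 589 per 1000000 mouse counts. Each lies above the highest untreated level of these arms, 25.2, so this lack of overlap is no support.

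The mir-2 and mir-13 family was represented by dme-mir-2a-2-3p, with 164, 2 and 11.5 counts untreated and 22.5, 108 and 49.5 oxidised. mir-13b has 2 gene copies, and their entries dme-mir-13b-2-3p and dme-mir-13b-1-3p each had 29, 1 and 4 counts untreated. Oxidised, dme-mir-13b-2-3p had 5, 34.5 and 20.5 and dme-mir-13b-1-3p had 5, 34.5 and 17.5. The equal and fractional values show reads divided between copies, so the 2 entries are not separate measurements.

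Of the other leading arms, dme-mir-8-3p, of the fly counterpart of the mammalian mir-200 family, had 112, 4 and 14 counts untreated and 9, 185 and 68 oxidised. dme-mir-282-5p had 86, 6 and 10 counts untreated and 12, 100 and 45 oxidised. dme-mir-11-3p, whose gene lies in an intron of the cell cycle factor E2f1, had 52, 1 and 7 counts untreated and 9, 62 and 24 oxidised. Each of these followed the same pattern over the libraries as bantam: many counts in untreated set 1, few in untreated set 2, and most in oxidised set 2. The named arms dme-mir-305-5p and dme-mir-276a-3p reached 45 and 76 counts in oxidised set 2 against 0 and 2 in untreated set 2.

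**Figure D3:**
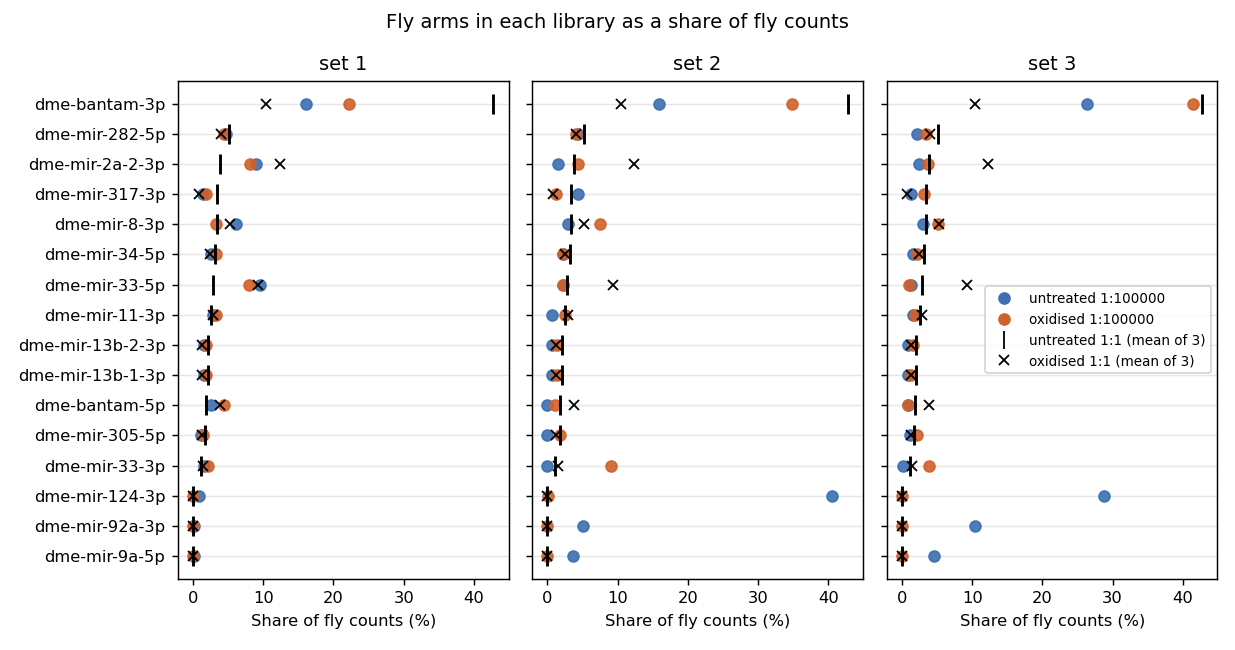
Share of fly counts (percent) of 16 fly arms in the untreated and oxidised 1:100000 libraries of each set, with the mean share over 3 libraries in untreated 1:1 (bars) and oxidised 1:1 (crosses) repeated in each panel. dme-bantam-3p lies at 16.1% to 41.4% of fly counts, and dme-mir-124-3p lies at 40.6% and 28.7% in untreated sets 2 and 3 and at 0.122% or less in oxidised libraries.

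The order of the arms followed that at 1:1 most closely in untreated set 1 and in the oxidised libraries. Over the 128 fly arms with a mean of at least 10 counts in untreated 1:1 libraries, Spearman's rho with the 1:1 library of the same set and treatment was 0.866, 0.505 and 0.611 in untreated sets 1, 2 and 3 and 0.825, 0.728 and 0.791 in oxidised ones. Among untreated libraries these values rose with the number of fly counts, while among oxidised libraries they fell as it rose. They are given as a description across arms, which are not independent. Against the 1:1 libraries of the other treatment in the same set, rho was 0.862, 0.485 and 0.579 in untreated and 0.802, 0.761 and 0.814 in oxidised libraries. Thus oxidised sets 2 and 3 had a slightly higher rho with the untreated than with the oxidised 1:1 library, and oxidised set 1 had the reverse.

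Balances between arms were measures chosen after the values were seen. That of dme-bantam-3p against 2 other arms separated the treatments from 1:1 to 1:1000, but they overlapped at 1:10000 and 1:100000. At 1:1 dme-bantam-3p stood at 42.8% ± 8.36 of fly counts untreated and 10.4% ± 0.214 oxidised (SD, n = 3), while dme-mir-2a-2-3p stood at 3.80% ± 0.132 untreated and 12.3% ± 1.55 oxidised, and dme-mir-33-5p at 2.85% ± 0.463 and 9.33% ± 2.59. The count of dme-bantam-3p over the sum of dme-mir-2a-2-3p and dme-mir-33-5p was therefore 4.92 to 8.23 in untreated and 0.426 to 0.574 in oxidised 1:1 libraries. At 1:100000 it was 1.37, 5.29 and 8.65 in oxidised sets 1, 2 and 3, all above the oxidised range at 1:1, with sets 2 and 3 within or above the untreated range. In untreated libraries it was 0.872 in set 1, 4.40 in set 2, on 22 and 5 counts, and 6.91 in set 3. Sets 1 and 2 thus lay below the untreated range at 1:1. In oxidised libraries the ratio lay at 0.426 to 0.610 from 1:1 to 1:100, at 0.670 to 0.943 at 1:1000 and at 1.39 to 4.57 at 1:10000.

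The arms of mir-33, which lies within the gene of the lipid regulator SREBP, changed places in 2 libraries. dme-mir-33-3p had 29, 0 and 1 counts in untreated sets 1, 2 and 3 and 6, 222 and 52 in oxidised ones, and dme-mir-33-5p had 173, 3 and 6 untreated and 22, 54 and 14 oxidised. The ratio of 3p to 5p was 0.303 to 0.418 in untreated and 0.113 to 0.235 in oxidised 1:1 libraries. It was 4.11 and 3.71 in oxidised sets 2 and 3, where the 3p arm outnumbered the 5p arm, and 0.273 in oxidised set 1. For mir-282, the ratio of 3p to 5p was 1, 0.680 and 0.889 in oxidised sets 1, 2 and 3, between the ranges of untreated (0.239 to 0.426) and oxidised (1.36 to 1.88) libraries at 1:1. In untreated libraries it was 1.26 in set 1, above all 3 oxidised libraries, and 0 and 0.100 in sets 2 and 3, where the 3p arm had 0 and 1 counts. Oxidised libraries held 30479 to 1165619 fly counts at 1:1 and 275 to 2460 at 1:100000, and the part of this difference in the ratios was not tested.

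**Figure D4:**
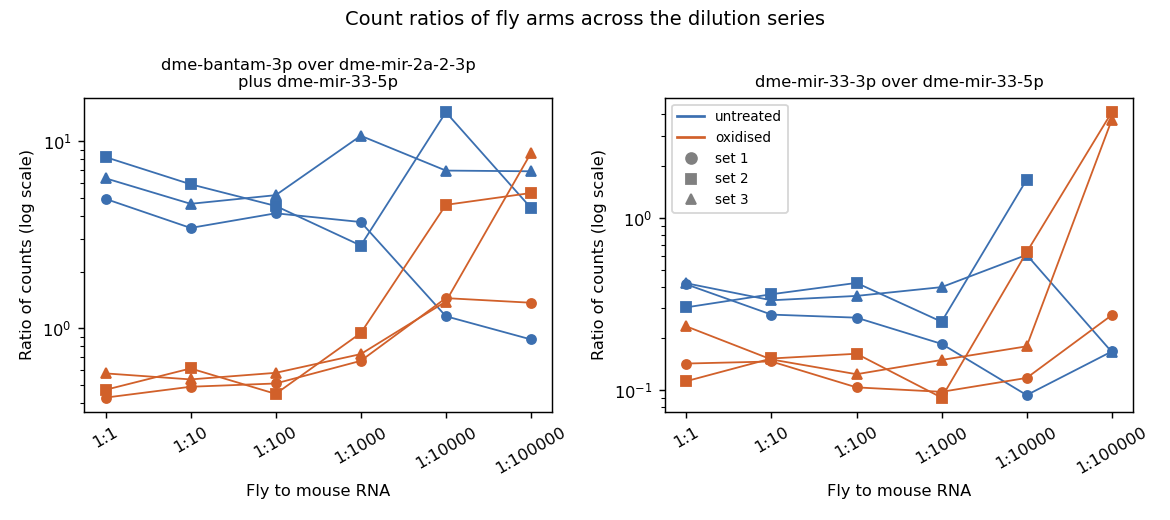
Ratios of fly arm counts (log scale) in each library across the 6 mixing ratios, coloured by treatment with 1 symbol per set: dme-bantam-3p over the sum of dme-mir-2a-2-3p and dme-mir-33-5p (left) and dme-mir-33-3p over dme-mir-33-5p (right; a ratio of 0 in untreated set 2 at 1:100000 is not drawn). In the left panel the treatments are separate from 1:1 to 1:1000 and overlap at 1:10000 and at 1:100000, where oxidised libraries lie at 1.37 to 8.65 and untreated ones at 0.872 to 6.91.

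Some fly entries did not follow the fly RNA: in untreated libraries their level per 1000000 mouse counts at 1:100000 was at least 1% of that at 1:1, with 3 or more counts, where proportional dilution would leave far less. The rule listed 6 entries, dme-mir-124-3p, dme-mir-92a-3p, dme-mir-9a-5p, dme-mir-125-5p, dme-mir-210-3p and dme-mir-190-5p. Together they held 42, 71 and 211 counts in untreated sets 1, 2 and 3, which were 2.30%, 51.4% and 45.9% of fly counts there, and 1, 3 and 0 counts in the oxidised libraries. Without them untreated libraries still held 148, 2.31 and 3.27 times the counts of proportional dilution. All but dme-mir-92a-3p belong to the list of fly miRNAs restricted to other tissues, which takes in 46 of the 372 fly arms and was drawn up with results of these data known. Its arms held 46.4% and 36.3% of fly counts in untreated sets 2 and 3 and 0.151% to 0.364% in oxidised libraries.

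dme-mir-124-3p, a neuronal miRNA conserved between flies and mammals, was the most abundant fly entry of untreated sets 2 and 3. It had 17, 56 and 132 counts in untreated sets 1, 2 and 3 and 0, 3 and 0 in oxidised ones. Its level per 1000000 mouse counts at 1:100000 was 5.95, 16.6 and 15.3, which were 65.4%, 292% and 636% of its level at 1:1 in the same sets. The mouse mir-124-3p entries, from 3 hairpins, held 11916, 34048 and 94954 counts in the same untreated libraries. The fly entry stood at 14.3, 16.4 and 13.9 counts per 10000 of these mouse counts, and over all 18 untreated libraries of the series, from 1:1 to 1:100000, at a median of 12.8 (lowest 3.58, highest 17.1). In the 3 oxidised 1:100000 libraries the mouse entries held 814 counts and the fly entry 3. In these libraries its number followed the mouse entries of the same name and not the fly input; whether reads of mouse miRNAs were counted for it was not tested.

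The other entries were rarer. dme-mir-92a-3p had 2, 7 and 48 counts in untreated libraries and dme-mir-9a-5p, of a miRNA that acts in sensory organ formation in flies, had 2, 5 and 21, and both were at 0 in all oxidised libraries. Over the 18 untreated libraries dme-mir-92a-3p had a median of 4.15 counts (0 to 6.735) per 10000 counts of the mouse mir-92a-3p entries. For dme-mir-9a-5p the median was 13.7 (0 to 86.2) per 10000 counts of the mouse mir-9-5p entries, a wider range. dme-mir-125-5p, of the let-7 complex that acts late in fly development, had 1, 2 and 6 counts. dme-mir-210-3p had 1, 1 and 4 counts. dme-mir-190-5p differed from these: it had 19 counts in untreated set 1, 1 in oxidised set 1 and 0 elsewhere, and its level was 1.73% of that at 1:1.

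**Figure D5:**
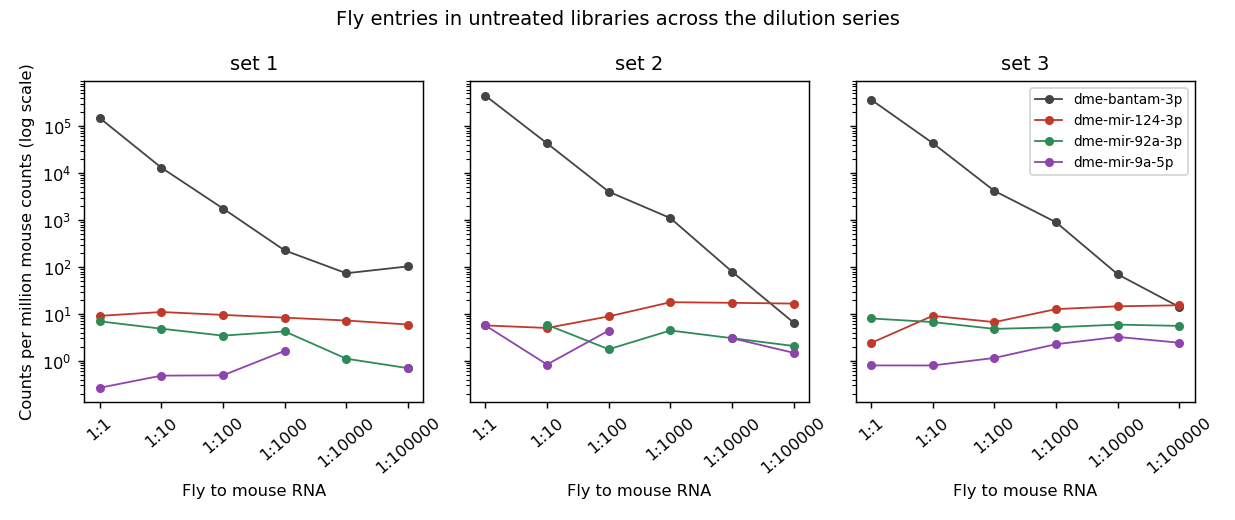
Level of 4 fly entries in untreated libraries, as counts per 1000000 mouse counts (log scale; counts of 0 are not drawn), across the 6 mixing ratios in each set. dme-bantam-3p falls with dilution in sets 2 and 3 to 6.52 and 14.01, below dme-mir-124-3p at 16.6 and 15.3, and in set 1 it stands at 103 at 1:100000, above its level at 1:10000.

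In oxidised libraries 9 fly entries with 3 or more counts had a raised share of fly counts. The share was at least 8 times that in the oxidised 1:1 library of the same set. For dme-mir-1013-3p and dme-mir-124-3p in set 2 the 1:1 count was 0, so the fold is undefined. The minimum of 3 counts is itself 1.09%, 0.122% and 0.226% of fly counts in oxidised sets 1, 2 and 3. An arm rare enough at 1:1 is therefore listed once it is seen, dme-mir-1007-3p and dme-mir-1013-3p among them. For such arms the listing is no support for a raised share. Of the 9 entries, 2 had 10 or more counts. dme-mir-33-3p was at 9.03% of fly counts in set 2, 9.14 times its 1:1 share. dme-mir-317-5p was at 13 counts or 0.980% in set 3, 13.8 times its 1:1 share. The mirtrons, made from short spliced introns without Drosha, gave 3 of the 9. Their list takes in 23 of the 372 fly arms and was drawn up with results of these data known. dme-mir-1003-3p had 7 counts in oxidised set 1, dme-mir-1007-3p had 3 and 7 in oxidised sets 2 and 3, and dme-mir-1013-3p had 9 in oxidised set 2. The 23 mirtron arms together held 2.55%, 0.651% and 1.51% of fly counts in oxidised sets 1, 2 and 3, 0.658% in untreated set 1, 0 in untreated sets 2 and 3, and 0.297% to 0.539% in untreated 1:1 libraries. dme-mir-124-3p was listed too, with 3 counts in set 2. In set 2 the 1:1 counts of dme-mir-1000-5p, dme-mir-1007-3p, dme-mir-278-3p and dme-mir-9c-3p were 4, 3, 3 and 6, so those folds rest on few counts.

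In the edgeR test of single entries no miRNA was called. Of 481 entries tested, 0 (0%) had an adjusted p below 0.05 in either direction, and 48 entries (9.98%) were higher and 27 (5.61%) lower in oxidised libraries at an unadjusted p below 0.05. The 38 fly arms that passed the filter on low counts had a median log2 change of 7.84 (1.45 to 10.17), the lowest being dme-mir-124-3p, and 36 had an unadjusted p below 0.05; over all tested entries the median was -0.17. The small oxidised libraries can pass this filter on a few counts, so the direction of those 38 was partly set by the filter and is no support. The other 334 fly arms were not tested. The count of calls turned on the design and on 1 library. With the replicate set as a block, 46 of 481 entries (9.56%) were called higher and 2 (0.416%) lower, of them 37 of the 38 fly arms. Without untreated set 1, 33 of 267 entries (12.4%) were called higher and 0 lower, among them 30 of 30 fly arms tested. Leaving out any other single library gave 0 fly arms called. Untreated set 1 was picked out by its high fly counts, so the calls without it are no separate support. With TMM factors from every mouse entry in place of the 50 most abundant, 20 of 548 entries (3.65%) were called higher, of them 18 fly arms. DESeq2 called 67 of the 589 entries to which it gave an adjusted p higher (11.4%), 56 of them fly arms, and no fly arm was called lower in any fit.

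Of the 69 arms on the list of S2 cell miRNAs, 34 were tested, 0 were called, and their median log2 change was 7.80 (5.45 to 10.17), while the replicate block called all 34 higher. The largest values among the named arms were those of dme-mir-33-3p, 9.61 (SE 2.44; edgeR adjusted p = 0.128), and dme-mir-276a-3p, 9.48 (SE 1.80; adjusted p = 0.0991). Both were called without untreated set 1, with log2 changes of 15.18 for dme-mir-33-3p, a value that rests on 0 and 1 untreated counts, and 12.03 for dme-mir-276a-3p (edgeR adjusted p = 0.000416 and 0.000437). Of the 46 tissue-restricted and 23 mirtron arms 1 each was tested. These lists were drawn up with results of these data known.

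On the mouse side, what remained after oxidation still carried the profile of embryonic stem cells. The mir-290 cluster made up 83.3%, 69.8% and 67.9% of mouse counts in untreated sets 1, 2 and 3, and 75.7%, 61.3% and 57.05% in oxidised ones. It was lower in the oxidised library of all 3 pairs, with oxidised minus untreated differences of -7.60, -8.54 and -10.8 percentage points, and the group means were 73.7% ± 8.39 and 64.7% ± 9.77 (SD, n = 3; exact two-sided permutation p = 0.3). The groups overlapped, and without untreated set 1 the difference was -4.18 percentage points (exact permutation p = 0.6). Its leading arm mmu-mir-294-3p was at 24.7%, 11.95% and 11.6% of mouse counts untreated and 23.5%, 7.69% and 11.7% oxidised. The other leading mouse entries, mmu-mir-295-3p, mmu-mir-291a-3p, mmu-mir-292a-3p and mmu-mir-292a-5p, are arms of the same cluster, and their log2 changes of -0.65 to -0.30 were not called. The replicate block called 2 of the 14 tested cluster arms lower, mmu-mir-295-3p and mmu-mir-292a-5p.

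The tested mouse entry with the largest positive log2 change was mmu-mir-184-3p, of a miRNA conserved between flies and mammals. It had 257, 51 and 147 counts untreated and 32, 230 and 156 oxidised, or 0.00900%, 0.00151% and 0.00170% of mouse counts untreated and 0.609%, 0.462% and 3.06% oxidised. The groups did not overlap, and its log2 change was 7.63 (SE 1.52; edgeR adjusted p = 0.0991), while it was called without untreated set 1 (9.67) and with the replicate set as a block (8.10). Its levels across libraries rose and fell with the fly share, being highest among untreated libraries in set 1, and in oxidised 1:1 libraries it held 88.01% ± 3.31 of mouse counts (SD, n = 3). The fly entry dme-mir-184-3p had 6 counts in oxidised set 2 and 0 in the other 5 libraries, while dme-mir-184-5p had 15, 0 and 0 untreated and 4, 6 and 10 oxidised. Counted as fly, mmu-mir-184-3p moved the oxidised to untreated log2 difference of the fly ratio from 9.62 to 9.44.

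The rule for named entries took the 6 mouse entries with the smallest p, since none was called. Beside mmu-mir-184-3p these were mmu-mir-126b-5p, mmu-let-7a-1-5p, mmu-mir-146a-5p, mmu-mir-29a-3p and mmu-mir-126a-5p. mmu-let-7a-1-5p, of the let-7 family that is low in stem cells, had 114, 190 and 529 counts untreated and 6, 7.5 and 49 oxidised, which is 39.9, 56.3 and 61.3 per 1000000 mouse counts untreated and 1141, 151 and 9616 oxidised. Its log2 change was 5.77 (SE 1.44; edgeR adjusted p = 0.128), and it shares reads with mmu-let-7a-2-5p. mmu-mir-146a-5p, which restrains innate immune signalling, had 45, 31 and 95 counts untreated and 7, 2 and 7 oxidised. mmu-mir-29a-3p, which targets collagen mRNAs, had 355, 427 and 1351 untreated and 4, 41 and 49 oxidised. mmu-mir-126b-5p rested on 13 counts or fewer in each library. With the replicate set as a block these 4 entries were called higher, with log2 changes of 4.41 for mmu-let-7a-1-5p, 5.22 for mmu-mir-146a-5p, 3.47 for mmu-mir-29a-3p and 8.34 for mmu-mir-126b-5p. Their untreated levels, at most 156.5 per 1000000 mouse counts (mmu-mir-29a-3p), all lie below the floor of 3 counts in oxidised sets 1 and 3. Any 3 counts there read as a rise, so the direction of these calls is no support. In the opposite direction, mmu-mir-126a-5p had 159, 349 and 908 counts untreated and 0 in all oxidised libraries. The 3 counts that a count of 0 allows correspond to 570, 60.3 and 589 per 1000000 mouse counts in oxidised sets 1, 2 and 3, against untreated levels of 55.65, 103 and 105, so a fall was not detectable at the depth of oxidised sets 1 and 3.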

How the data were processed

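Small RNA libraries of 18 to 30 nt were made with adapters carrying 4 random nucleotides, per the labels' protocols. The deposited files hold expected counts (estimated read counts, fractional where reads are shared) per hairpin arm, for fly and mouse entries together and not scaled to depth, per the file headers and values. Per the submitters' processing notes the tools included cutadapt 1.2.1 and HTSeq 0.6.1p1 and the builds were mm10 and dm3, with no role stated. For the aligner, and for the handling of reads matching several entries, the answer is not given in the sources used here. Set 1 lists 1781 entries and the others 2038; the 257 missing entries, none above 3 counts in the other 1:100000 libraries, were set to 0. No mature sequences were at hand, so none is printed.

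Totals of the 6 libraries ran from 5534 to 8635196 counts. Fly to mouse ratios were taken from summed unrounded counts and compared by exact two-sided permutation (SciPy 1.17.1). Detection used the hypergeometric expectation after thinning. Single entries were tested on rounded counts with edgeR 4.0.16 in R 4.3.3 (quasi-likelihood, 6 libraries, filterByExpr with minimum count 10 and minimum total 15, Benjamini-Hochberg over both species, threshold 0.05), with mouse totals times TMM factors as library sizes. The test was checked on simulated data, where TMM factors from every mouse entry shifted unchanged entries downward, so factors were taken from the 50 most abundant mouse entries. This change was made after the calls with every mouse entry had been seen and took the number of called entries from 20 to 0; both counts are given. DESeq2 1.42.0 was an alternative.

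Per the labels each mixture was divided between the treatments, so libraries of a set are pairs; deviations from group means over 300 entries correlated at 0.293, 0.181 and 0.158 within sets 1, 2 and 3. No library was a copy of another, since chi-square over its degrees of freedom was at least 17.07 for all 15 pairs of libraries. Named entries were the 12 most abundant fly arms of untreated 1:1 libraries, the 10 most abundant in each 1:100000 group, listed entries that do not follow fly RNA with 10 or more counts, the 6 mouse entries with the smallest p (none being called) and the 5 most abundant mouse entries of each group; others were chosen after their values were seen. The libraries compared and the lists of miRNAs were chosen with earlier results of these data known.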

Additional observations from a re-analysis of the deposited data

How the results depend on the processing

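The difference of the log2 fly to mouse ratio kept its direction under every alternative run (8.30 to 11.25 with a library or set left out). With the replicate block it was 9.62, but a mean of paired differences equals the difference of means by arithmetic. The block is thus no check of the size of such a difference. The change against 1:10000 ran from -1.62 to -0.13 with a set left out, and by the same arithmetic was -0.90 with the replicate block. The difference in fly arms seen at equal depth was 46.1 with a minimum of 1 count, 10.7 with 10 counts and 14 without thinning. It was 22.1 to 33.5 with a set or untreated set 1 left out, and by the same arithmetic 28.75 with the replicate block. The count of fly arms called higher, 0, was 68 in a fit over all 36 libraries, 36 with total counts as scaling and 36 with mouse totals without TMM, 10 with TMM over all entries, 18 with TMM from every mouse entry, 56 with DESeq2, 49 without the filter and 37 with the replicate block. Leaving out a set or a library gave 0 to 31 fly arms, with 31 without set 1 and 30 without untreated set 1. For mouse entries the same alternatives called 11, 9, 9, 2, 2, 11, 11 and 9 higher; 0 to 3 were called with a set or library left out. Lower mouse entries numbered 7 in the fit over all 36 libraries, 2 with the replicate block and 0 to 1 with a set or library left out. The cause was not tested. The mir-290 difference was -9.69 to -4.18 percentage points with a set or untreated set 1 left out. With the replicate block it was -8.99, by arithmetic the same as the difference of group means. Excess over proportional dilution from the 1:10 base was 4.61 in untreated set 3 and 76.2, 72.3 and 378 in oxidised sets 1 to 3. From the 1:1 base it was 2.31 and 3.27 in untreated sets 2 and 3 without the entries that do not follow fly RNA, and 55.8, 87.2 and 406 in oxidised sets 1 to 3 with mmu-mir-184-3p left out of mouse counts. The untreated list of such entries grew from 6 to 46 with the 1:10 base, where the 1% threshold is closer to proportional dilution. From that base untreated set 1 held 157 times the counts of proportional dilution, so its fly arms as a whole come near the threshold. The part of that library in the 46 was not tested. The oxidised list fell from 9 to 3 with a 10-fold higher threshold and to 2 with 10 or more counts. Log2 changes of single entries turned direction with a set or library left out for dme-mir-124-3p (-8.33 without oxidised set 2, to 1.65), mmu-mir-294-3p (-1.55 to 0.55), mmu-mir-291a-3p (-0.97 to 0.21) and mmu-mir-292a-3p (-1.07 to 0.26), the last 3 positive without untreated set 1, and mmu-mir-292a-3p also without oxidised set 2 (0.036). Over the named entries, 174 values under alternatives passed the threshold that the main value missed, 269 stayed on the same side and 5 reversed. Alternatives that leave out fly arms by sequence identity with mouse miRNAs were not run, for want of sequences. Alternatives without the entries that do not follow fly RNA, with mmu-mir-184-3p left out of mouse counts or with TMM from every mouse entry, and those without untreated set 1 for arms seen and the mir-290 share, were chosen after seeing the data.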

Other observations

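Other mouse miRNA groups showed no called member at 1:100000 in the fit without a replicate block, where 481 entries were tested in all; with the block 2 let-7 arms were called higher, mmu-let-7a-1-5p (log2 change 4.41) and mmu-let-7a-2-5p (4.11), which share reads. Of the 30 arms of the mir-17-92 cluster and its paralogs, which promote proliferation, all 30 were tested, with a median log2 change of 0.09, and they made up 3.63%, 8.48% and 8.79% of mouse counts in untreated sets 1, 2 and 3 and 4.80%, 10.03% and 11.1% in oxidised ones. Of the 82 arms of the imprinted Dlk1-Dio3 region 60 were tested, with a median of -0.33, and their share was 1.37%, 1.995% and 2.08% untreated and 1.52%, 2.21% and 1.81% oxidised. Markers of differentiated cells, among them mir-124, mir-142a and mir-9, made up 1.12%, 2.004% and 2.13% of mouse counts untreated and 1.01%, 2.93% and 1.22% oxidised. Of the 22 let-7 family arms 9 were tested, with a median of -0.44, and they made up 0.0524%, 0.0936% and 0.0983% of mouse counts untreated and 0.247%, 0.0884% and 2.02% oxidised. Over all mouse entries tested the median log2 change was -0.23.

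mmu-mir-6236-5p was highest in set 1 in both treatments: it had 289, 42.45 and 113 counts in untreated sets 1, 2 and 3 and 119, 9.30 and 3.50 in oxidised ones, or 101, 12.6 and 13.03 per 1000000 mouse counts untreated and 22668, 187 and 687 oxidised. The groups did not overlap, but a floor of 3 counts already corresponds to 589 per 1000000 mouse counts in oxidised set 3. mmu-mir-6236-5p was not called (log2 change 7.31, edgeR adjusted p = 0.172), and with the replicate block it was called higher (5.69).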
